A study of Mus musculus with 6 samples.

Results

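Microtubules are built from alpha- and beta-tubulin and shaped by proteins that bind, cap, cut or sequester it, and 45 mouse genes of this machinery were followed in newborn hippocampus with and without a *Mov10* deletion. The members were listed by name from textbook families: 12 tubulins, 8 lattice-binding microtubule-associated proteins (MAPs), 3 end-binding proteins, 4 stathmins, 3 doublecortin family genes, 3 minus-end binding genes, 4 severing genes, 5 plus-end and polymerase genes and 3 dynein regulators. The list was made with earlier results of these data known. All 45 members were found among the 52230 genes with an annotated transcript, and 44 were among the 16745 genes expressed highly enough to test. *Tuba8* was the exception, with 6 to 16 estimated counts per library.

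The 6 libraries were hippocampi of P0 pups, 3 of *Mov10* Deletion and 3 of WT (C57BL/6), each pooled from at least 2 pups. *Mov10* Deletion animals carried a conditional allele, in which exons 6 and 7 of *Mov10* lie between LoxP sites and are removed by *Emx1*-Cre in the excitatory lineage of neocortex and hippocampus, together with a *Mov10* mutant allele inherited through the germline. Cells outside the *Emx1* lineage therefore keep 1 allele that Cre does not cut. MOV10 is an RNA helicase, and the comparison asked which transcripts change with its loss. *Mov10* itself, in counts scaled to library size (CPM), stood at 2.45, 2.14 and 2.09 in Deletion and 4.81, 4.75 and 4.80 in WT, so each library matched its label (log2 fold change -1.11, SE 0.10, limma adjusted p = 0.00115).

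Depth was 71400300 to 86207971 estimated counts per library. Correlations of log2 CPM were 0.991 to 0.996 within groups and 0.987 to 0.991 across them. All 16 neuron markers and all 8 hippocampal field markers were expressed highly enough to test. So were all 6 erythroid and all 8 choroid plexus and meningeal markers, so passing this filter does not identify the tissue. The log2 level of *Xist* over Y-linked genes was -7.70, 5.90 and -4.78 in Deletion and 2.39, 4.12 and 5.15 in WT, so the sexes were not balanced between the pools. Deletion replicate 1 stood apart in choroid plexus and meningeal markers, with a summed level of 118 CPM against 25.9 to 47.5 CPM in the other 5 libraries.

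Tubulin dimers of 1 alpha and 1 beta subunit polymerize into the microtubules that carry transport and hold the shape of axons and dendrites. Young neurons express a characteristic set of isotypes and MAPs, and cells adjust tubulin synthesis to free dimer through autoregulation, in which the nascent start of a tubulin chain marks its own mRNA for decay. The carboxy-terminal tails carry most of the differences between isotypes and most of the modifications.

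The coding starts are shown because autoregulation reads them, with codons 2 to 4 in capitals. They were taken from the GENCODE transcripts (GRCm39) of isotypes whose levels are compared below.
Tuba1a: atgCGTGAGTGCatc
Tuba1c: atgCGTGAGTGCatc
Tubb2a: atgCGCGAGATCgtg
Tubb2b: atgCGAGAGATCgtg
Tubb3: atgAGGGAGATCgtg
Tubb5: atgAGGGAAATCgtg

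The alpha isotypes *Tuba1a* (chr15:98847714-98851589, minus strand), *Tuba1b* (chr15:98827738-98832493, minus strand) and *Tuba1c* (chr15:98927748-98936266, plus strand) lie near each other on chromosome 15. The beta isotypes *Tubb2a* (chr13:34257549-34261998, minus strand) and *Tubb2b* (chr13:34307245-34315143, minus strand) are likewise neighbours.

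Of the 44 members tested, 4 were higher and 7 were lower in *Mov10* Deletion at an adjusted p below 0.05 (limma-trend with 2 factors of unwanted variation). *Tubb6*, *Stmn4*, *Map6* and *Dclk1* rose, and *Tuba1c*, *Nde1*, *Ckap5*, *Map1s*, *Camsap3*, *Camsap2* and *Spast* fell. Over all genes 24.7% were called, 12.6% higher and 12.1% lower, so the 11 of 44 called members were at the background share in this fit. Without the factors the same 11 members passed, with 21.0% of all genes called. The libraries of the 2 groups did not overlap for 17 members, the 11 called ones included, against 41.6% of all genes. The median log2 fold change was 0.02 over members and 0.01 over all genes tested. Changes were small, with a median absolute log2 fold change of 0.08 over members and 0.13 over all genes. The number of members called depended on single libraries. Without Deletion replicate 1, 11 members were higher, with 15.6% of all genes called higher, and without Deletion replicate 3, 11 were higher, with 12.7%. Without WT replicate 3, 9 were higher (15.1% of all genes), and without WT replicate 2, 2 were higher (9.95%). Without Deletion replicate 2, 16 members were lower, with 2988 of 16603 genes called lower. In bulk tissue, fewer cells of a type and less RNA per cell cannot be told apart.

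**Figure D1:**
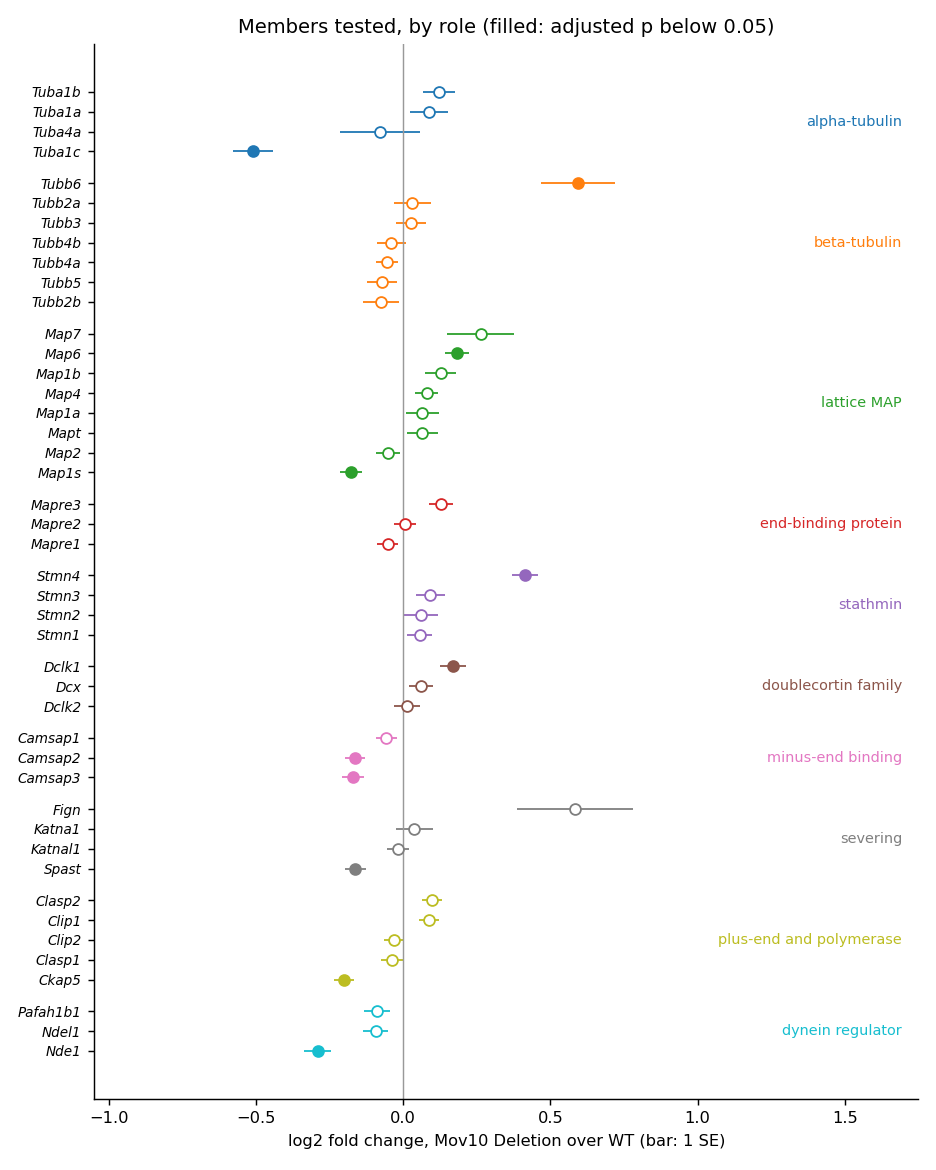
Log2 fold change of each of the 44 members tested, Mov10 Deletion over WT (points, with 1 SE as bars), grouped by role; filled points passed an adjusted p of 0.05. Filled points stand on both sides of 0, from *Tuba1c* at -0.51 to *Tubb6* at 0.59, and *Fign*, with few counts, has the widest bar.

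The tubulins made up 1.96 to 2.13% of all TPM, a unit per transcript length in which genes can be compared. *Tuba1a*, the main alpha-tubulin of young neurons, was the most abundant member at 10258, 10771 and 9943 TPM in Deletion and 9584, 9896 and 9853 TPM in WT. These TPM did not overlap, while the CPM of *Tuba1a* did, and the gene was not called (log2 fold change 0.09, SE 0.06, adjusted p = 0.354). *Tuba1b*, expressed in most cell types, followed far below at 795, 803 and 734 TPM in Deletion and 722, 714 and 661 TPM in WT, and it did not pass either (0.12, SE 0.05, adjusted p = 0.134).

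*Tuba1c*, a minor and broadly expressed alpha isotype, fell. Its level was 12.1, 10.8 and 10.1 CPM in Deletion and 15.4, 15.3 and 16.6 CPM in WT, with every Deletion library below every WT library. The log2 fold change was -0.51 (SE 0.07, adjusted p = 0.00310), and the call held in 20 of 20 alternative analyses. Per length it was at 14.6, 13.1 and 12.02 TPM in Deletion and 18.5, 17.7 and 19.2 TPM in WT. The *Tuba1* genes are close copies: 40.2% of the 150-base windows of the *Tuba1c* transcript also occur in transcripts of other genes, against 54.6% for *Tuba1a* and 28.8% for *Tuba1b*, so the authors' counting had to divide such reads and these levels carry that uncertainty.

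*Tuba4a*, a minor alpha isotype at this age, was at 21.3, 21.9 and 17.3 TPM in Deletion and 20.6, 23.6 and 19.9 TPM in WT, and the groups overlapped (-0.08, SE 0.14, adjusted p = 0.706). *Tuba8* was at 0.177, 0.125 and 0.0757 TPM in Deletion and 0.0739, 0.0712 and 0.124 TPM in WT, too little to compare.

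Among beta-tubulins, *Tubb2b*, an isotype of migrating and young neurons, was at 3927, 4127 and 3763 TPM in Deletion and 4078, 4198 and 4305 TPM in WT. *Tubb5*, expressed in progenitors and neurons, was at 2018, 2094 and 1969 TPM in Deletion and 2078, 2153 and 2186 TPM in WT. Both overlapped between groups and had log2 fold changes of -0.08 (SE 0.06) and -0.07 (SE 0.05), with adjusted p of 0.387 and 0.339. *Tubb3*, the neuron-restricted isotype, was at 1361, 1436 and 1318 TPM in Deletion and 1331, 1351 and 1315 TPM in WT. *Tubb2a* was at 1318, 1385 and 1219 TPM in Deletion and 1259, 1289 and 1228 TPM in WT. Both overlapped between groups, and neither passed the test (adjusted p = 0.735 and 0.744).

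*Tubb4a* (314, 336 and 321 TPM in Deletion, 342, 332 and 323 TPM in WT) and *Tubb4b* (290.3, 285 and 267 TPM in Deletion, 286, 292 and 282 TPM in WT) were close to each other in level, and neither passed the test (adjusted p = 0.310 and 0.575). *Tubb6*, a low-abundance beta isotype, rose from 4.25, 3.70 and 4.25 CPM in WT to 8.34, 5.72 and 5.11 CPM in Deletion. All 3 Deletion libraries were above WT, and Deletion replicate 1, the one with the high choroid plexus and meningeal markers, was the highest. The log2 fold change was 0.59 (SE 0.13, adjusted p = 0.0142), and per length the gene was at 9.07, 5.93 and 5.48 TPM in Deletion and 4.55, 3.89 and 4.38 TPM in WT. It also passed without Deletion replicate 1, and it did not pass with the sex score as a covariate (0.47, adjusted p = 0.164).

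In order of level, *Tuba1a* stood above *Tubb2b* and *Tubb5*, with *Tubb3* and *Tubb2a* next and overlapping each other. *Tuba1b*, the pair of *Tubb4a* and *Tubb4b*, *Tuba4a*, *Tuba1c*, *Tubb6* and *Tuba8* followed. *Tuba4a* and *Tuba1c* overlapped, as their libraries ranged from 17.3 to 23.6 and from 12.02 to 19.2 TPM.

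The balance of alpha- to beta-tubulin mRNA was higher in every Deletion library than in any WT library. Summed over the members, alpha-tubulin was at 11089, 11609 and 10706 TPM in Deletion and 10345, 10652 and 10553 TPM in WT. Beta-tubulin was at 9237, 9670 and 8862 TPM in Deletion and 9379, 9619 and 9644 TPM in WT. The ratio of alpha to beta was 1.20, 1.20 and 1.21 in Deletion and 1.10, 1.11 and 1.09 in WT.

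The Deletion mean of this ratio, 1.203 ± 0.00436, was 9.22% above the WT mean of 1.102 ± 0.00669 (SD, n = 3 each, exact two-sided permutation p = 0.1, the smallest that 3 against 3 can give). By estimated counts the ratio was 0.9201, 0.924 and 0.922 in Deletion and 0.839, 0.846 and 0.827 in WT, or 10.1% higher. The difference by TPM stayed between 0.0979 and 0.104 when any 1 library was left out. The ratio was chosen after the isotype levels had been seen. With *Tuba1a* left out, the other alpha-tubulins against beta-tubulin gave a ratio 13.1% higher in Deletion, again with no overlap.

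Ratios between single isotypes were not all shifted alike. *Tuba1a* over *Tubb2b* was 2.61, 2.61 and 2.64 in Deletion and 2.35, 2.36 and 2.29 in WT, 12.4% higher. *Tuba1a* over *Tubb5* was 5.08, 5.14 and 5.05 in Deletion and 4.61, 4.60 and 4.51 in WT, 11.4% higher. Both sets of libraries were apart, whereas *Tuba1a* over *Tubb2a* overlapped, at 7.78, 7.78 and 8.15 in Deletion and 7.61, 7.68 and 8.02 in WT. *Tubb2a* over its neighbour *Tubb2b* was 0.336, 0.335 and 0.324 in Deletion and 0.309, 0.307 and 0.285 in WT, 10.4% higher. The exact p was 0.1 for each of the 7 ratios that did not overlap among the 9 computed, and 0.129 adjusted over the 9. *Tubb2a* and *Tubb2b* share 18.7% of the windows of the *Tubb2a* transcript.

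**Figure D2:**
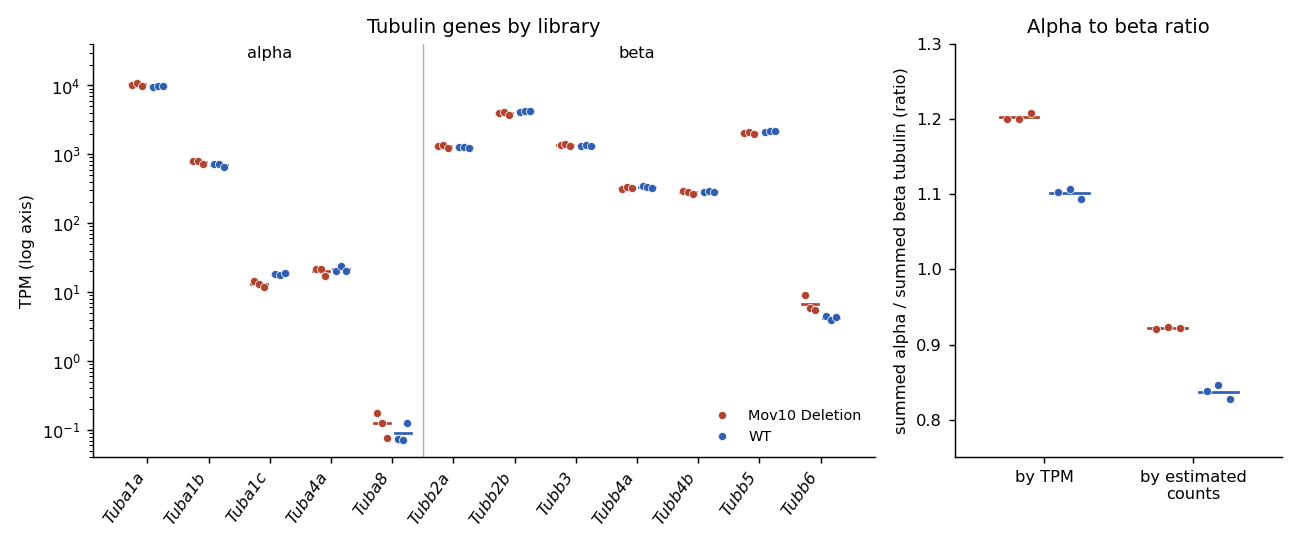
Left, TPM of the 12 tubulin members in each library on a log axis (points; bars are group means), alpha isotypes before beta isotypes; right, the ratio of summed alpha- to summed beta-tubulin in each library, by TPM and by estimated counts. The abundant isotypes nearly coincide, while the ratios by TPM are 1.20 to 1.21 in Mov10 Deletion and 1.09 to 1.11 in WT.

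The share of each isotype within its family moved little. *Tubb2b* was 42.5, 42.7 and 42.5% of beta-tubulin TPM in Deletion and 43.5, 43.6 and 44.6% in WT, while *Tubb2a* was 14.3, 14.3 and 13.8% against 13.4, 13.4 and 12.7%. *Tubb3* was 14.7, 14.8 and 14.9% in Deletion and 14.2, 14.0 and 13.6% in WT. These 3 shares did not overlap between groups, and neither did those of *Tubb6* and, within alpha-tubulin, *Tuba1c*, which was 0.119 ± 0.0114% in Deletion and 0.175 ± 0.00847% in WT (SD, n = 3 each). Each of the 5 had an exact p of 0.1, or 0.24 adjusted over the 12 isotypes. *Tuba1a* was 92.7 ± 0.192% of alpha-tubulin in Deletion and 93.0 ± 0.368% in WT, with overlap.

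The MAPs that bind along the lattice stabilize microtubules and space them in axons and dendrites. Of the 8, *Map6* rose and *Map1s* fell. *Map6*, which encodes a protein that protects microtubules from cold and drugs, was at 204.9, 235 and 214 CPM in Deletion and 193, 192 and 192 CPM in WT. WT libraries were nearly equal and all Deletion libraries were above them (log2 fold change 0.18, SE 0.04, adjusted p = 0.0152), but the adjusted p was 0.0539 without WT replicate 2. *Map1s*, the small member of the MAP1 family, was at 54.2, 61.0 and 59.7 CPM in Deletion and 67.2, 65.3 and 65.0 CPM in WT, with no overlap (-0.18, SE 0.04, adjusted p = 0.0132). It was the called member that held least often, in 15 of 20 alternatives, with adjusted p of 0.0518 without WT replicate 2 and 0.214 with the sex score as covariate.

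The abundant neuronal MAPs did not pass. *Map2*, the dendritic MAP, was at 794, 839.5 and 853 TPM in Deletion and 905, 876 and 848 TPM in WT, and its groups overlapped (-0.05, SE 0.04, adjusted p = 0.373). *Mapt*, which encodes the axonal MAP tau, was at 857, 916 and 856 TPM in Deletion and 860.1, 849 and 759 TPM in WT (0.07, SE 0.05, adjusted p = 0.396). *Map1b*, a MAP of growing axons, and *Map4*, the broadly expressed MAP, did not overlap between groups in CPM, while their TPM did overlap. Their log2 fold changes were 0.13 (SE 0.05) and 0.08 (SE 0.04), with adjusted p of 0.114 and 0.17. *Map1a* and *Map7* overlapped in CPM (adjusted p = 0.417 and 0.132).

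The end-binding genes *Mapre1*, *Mapre2* and *Mapre3*, whose proteins track growing plus ends, did not pass. *Mapre3*, the neuronal one, was nearest, at 81.7, 94.2 and 92.6 CPM in Deletion and 84.1, 83.0 and 74.2 CPM in WT (0.13, SE 0.04, adjusted p = 0.0546). Its groups overlapped through Deletion replicate 1.

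Stathmins bind free tubulin dimers and promote disassembly, and here 1 of the 4 rose. *Stmn4*, a brain-restricted stathmin, was at 246, 254 and 232 CPM in Deletion and 191, 183 and 156 CPM in WT, so the lowest Deletion library was well above the highest WT library. The log2 fold change was 0.41 (SE 0.04, adjusted p = 0.00182), and it was called in 20 of 20 alternatives. Among members, only *Tuba1c*, *Tubb6* and *Fign*, all at far lower levels, had a larger absolute log2 fold change in CPM.

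The more abundant stathmins differed less. *Stmn1*, the broadly expressed stathmin of progenitors and neurons, was at 2623, 2607 and 2500.4 TPM in Deletion and 2450.1, 2461 and 2435 TPM in WT, and it was not called (0.06, SE 0.04, adjusted p = 0.358). *Stmn2*, the axon growth stathmin, was at 1323, 1409 and 1247 TPM in Deletion and 1306, 1298 and 1201 TPM in WT (0.06, SE 0.06, adjusted p = 0.496). *Stmn3* did not overlap between groups in CPM and missed the threshold (0.09, SE 0.05, adjusted p = 0.21). Summed stathmin TPM was 4772 to 5140 in Deletion and 4481 to 4723 in WT (exact p = 0.1, the smallest possible).

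Doublecortin family proteins stabilize microtubules in migrating and extending neurons. *Dclk1*, which couples a doublecortin domain to a kinase, rose from 778, 781 and 725 CPM in WT to 842, 915 and 842 CPM in Deletion, with no overlap (0.17, SE 0.04, adjusted p = 0.0286). Without WT replicate 2 the adjusted p was 0.104. Its X-linked relative *Dcx* and its paralog *Dclk2* overlapped between groups, with log2 fold changes of 0.06 (SE 0.04) and 0.01 (SE 0.04).

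The minus-end binding CAMSAP proteins hold free microtubule ends in dendrites and axons, and 2 of the 3 genes fell. *Camsap2* was at 293, 310.2 and 298 CPM in Deletion and 333, 336 and 354 CPM in WT. *Camsap3* was at 106, 121 and 121 CPM in Deletion and 132, 128 and 135 CPM in WT. The Deletion libraries were below all WT libraries for both genes (-0.16, SE 0.03, adjusted p = 0.0146 for *Camsap2*, and -0.17, SE 0.04, adjusted p = 0.0146 for *Camsap3*). The call of *Camsap2* was lost without WT replicate 2 (adjusted p = 0.0732), and with the sex score as covariate the adjusted p was 0.1004 for *Camsap2* and 0.231 for *Camsap3*.

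Their paralog *Camsap1* overlapped, at 251, 274 and 271 CPM in Deletion and 275, 272 and 295 CPM in WT (-0.06, SE 0.03, adjusted p = 0.261). The study named *Camsap2* and *Camsap3*, and also *Spast*, from the calls on these same libraries, so their inclusion is not independent evidence of a direction. Summed over the 3 CAMSAP genes, TPM was 249 to 261 in Deletion and 278 to 287 in WT.

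Severing enzymes cut the lattice. *Spast*, which encodes spastin, was at 207, 210.4 and 209 CPM in Deletion and 235, 229 and 243 CPM in WT, with Deletion libraries closely grouped below WT (-0.16, SE 0.04, adjusted p = 0.0160). The adjusted p was 0.0707 with the sex score as covariate. The katanin catalytic genes *Katna1* and *Katnal1* overlapped between groups, at -0.02 to 0.04 on the log2 scale, and *Katnal1* changed sign with the processing. *Fign*, which encodes fidgetin, had only 33 to 60 estimated counts and was at 0.734, 0.642 and 0.658 CPM in Deletion and 0.383, 0.463 and 0.637 CPM in WT. It did not pass (0.58, SE 0.20, adjusted p = 0.0647). Its TPM lay the other way, at 0.203, 0.224 and 0.194 in Deletion and 0.110, 0.316 and 0.285 in WT, so no direction is given.

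Among the plus-end and polymerase genes, *Ckap5*, which encodes the microtubule polymerase of spindles and growth cones, fell. It was at 306, 313 and 306 CPM in Deletion and 351, 357 and 359 CPM in WT, with a narrow spread in each group and no overlap. The log2 fold change was -0.20 (SE 0.03, adjusted p = 0.00678), and it was called in 20 of 20 alternatives. The rescue factors *Clasp1* and *Clasp2* and the plus-end tracking genes *Clip1* and *Clip2* did not pass, with log2 fold changes from -0.04 to 0.10 and adjusted p of 0.0678 or more.

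Of the dynein regulators, *Nde1* fell. Its product recruits dynein with LIS1 and is needed in dividing progenitors, and it was at 24.1, 22.3 and 22.4 CPM in Deletion and 28.1, 28.0 and 27.2 CPM in WT. All Deletion libraries lay below WT (-0.29, SE 0.05, adjusted p = 0.00536), in 20 of 20 alternatives. Its paralog *Ndel1*, the form of postmitotic neurons, overlapped (-0.09, SE 0.04, adjusted p = 0.141). *Pafah1b1*, which encodes LIS1, was at 544, 584 and 532 CPM in Deletion and 591, 587 and 589.9 CPM in WT, apart by a small margin and not called (-0.09, SE 0.04, adjusted p = 0.166).

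**Figure D3:**
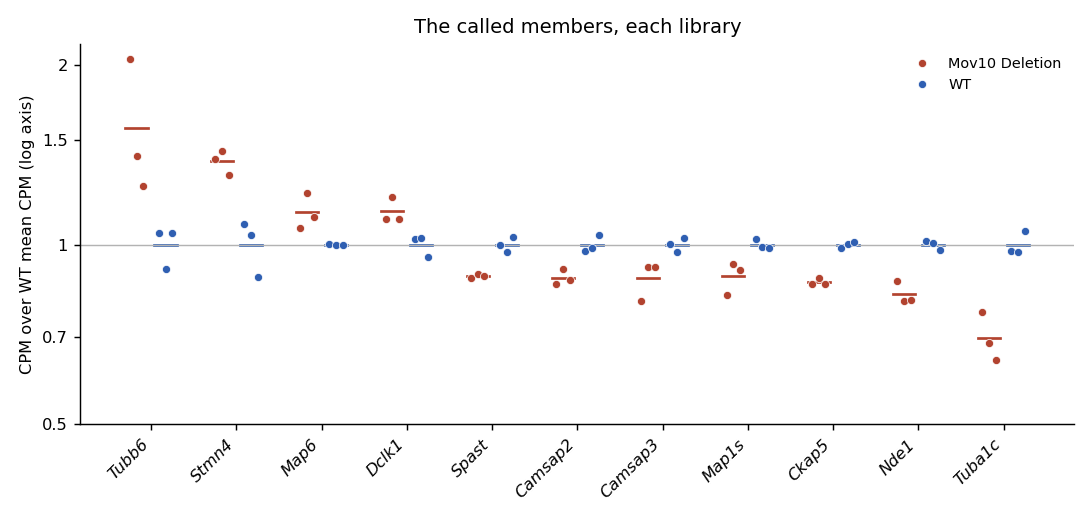
CPM of the 11 called members in each library, divided by the WT mean of the gene, on a log axis (points; bars are group means). The groups do not overlap for any of the 11; *Tubb6* ranges most widely among Deletion libraries, from 5.11 to 8.34 CPM.

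The counts of calls in the cell type marker lists stand beside 12.6% higher and 12.1% lower over all genes tested. Proliferation markers fell, as did *Ckap5*, *Nde1* and *Tuba1c*. Of 10 such genes 9 were lower and 0 higher, the median log2 fold change was -0.28, and the summed level was 369 to 407 CPM in Deletion and 447 to 489 CPM in WT, with no marker at 0. *Cenpf*, a kinetochore gene, was at 53.3, 50.4 and 53.9 CPM in Deletion and 67.3, 72.1 and 77.0 CPM in WT (-0.42, SE 0.04). Radial glia and progenitor markers were mixed, with 2 higher, 2 lower and 6 not called of 10, and a summed level of 1106 to 1218 CPM in Deletion and 1036 to 1098 CPM in WT. The part of dividing cells in the levels of *Ckap5*, *Nde1* and *Tuba1c* was not tested.

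Neuron markers overlapped in summed level, with 2 of 16 higher, 1 lower and a summed level of 3438 to 3718 CPM in Deletion and 3577 to 3604 CPM in WT. Astrocyte markers were higher for 3 of 8 and lower for 0, with summed levels of 1539.9 to 1612 CPM in Deletion and 1304 to 1484 CPM in WT and *Aqp4* at a log2 fold change of 1.14 (SE 0.15). Their part in the rise of *Stmn4*, *Map6*, *Dclk1* and *Tubb6* was not tested. Of the remaining lists, hippocampal field markers had 2 of 8 higher and 2 lower, oligodendrocyte lineage markers 1 of 8 higher and 1 lower, and endothelial and pericyte markers 2 of 8 higher and 2 lower. Choroid plexus and meningeal markers had 1 of 8 higher and 2 lower, erythroid markers 3 of 6 lower, and microglia markers 0 of 6 called by limma.

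Other genes of the pathway were taken as lists, also made with earlier results of these data known. Their counts of calls stand beside 12.6% higher and 12.1% lower over all genes tested. Of 20 tubulin folding genes, which encode chaperonin and prefoldin subunits and tubulin cofactors, 1 was higher and 3 were lower, with a median log2 fold change of -0.07. *Cct2*, a chaperonin subunit, was at 336, 337 and 315 CPM in Deletion and 366, 378 and 398 CPM in WT (-0.19, SE 0.04, adjusted p = 0.0152), and *Cct4* was also lower (-0.15, SE 0.04). Of 26 tubulin modification genes, 3 were higher and 1 was lower. *Agtpbp1*, which encodes a deglutamylase that shortens polyglutamate side chains of tubulin, was at 146, 158 and 146 CPM in Deletion and 116, 116 and 103 CPM in WT (0.40, SE 0.04, adjusted p = 0.00194). *Atat1*, the alpha-tubulin acetyltransferase gene, was higher by 0.16 (SE 0.03, adjusted p = 0.0142).

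Of the 4 genes for tubulin mRNA autoregulation, *Scaper*, whose product links the recognized ribosome to deadenylation, was at 79.5, 81.6 and 81.4 CPM in Deletion and 74.0, 74.1 and 77.3 CPM in WT (0.12, SE 0.04, adjusted p = 0.0444), and the other 3 were not called. Among 19 other lattice MAPs and crosslinkers, 7 were higher and 4 lower. *Dst*, which crosslinks actin and microtubules, was at 0.27 (SE 0.05), though its libraries overlapped between groups in CPM. *Gas2l3*, a cytokinesis gene, was at -0.35 (SE 0.07). The list of 20 other plus-end and severing genes held 3 that rose and 5 that fell, and the spindle genes *Tacc3* (-0.51, SE 0.05) and *Ckap2* (-0.61, SE 0.06) had the smallest p. Of 8 other tubulins 4 were tested, with *Tubg2* (0.21, SE 0.06) and *Tube1* (0.27, limma adjusted p = 0.0490) higher and *Tubd1* (-0.37, SE 0.10) lower. The libraries of *Tubd1* overlapped between groups in CPM. *Tubg2* encodes gamma-tubulin, and *Tube1* and *Tubd1* encode centriole tubulins.

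**Figure D4:**
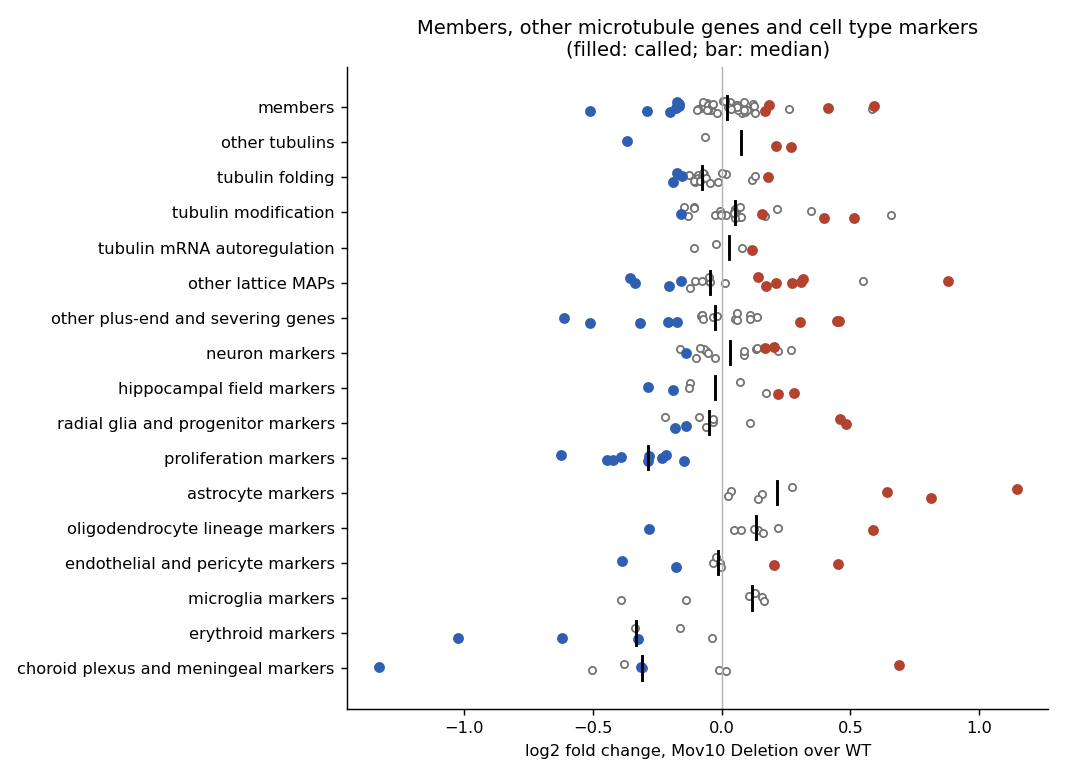
Log2 fold change of each tested gene (points, Mov10 Deletion over WT) in the members, the lists of other microtubule genes and the lists of cell type markers; filled red points were called higher, filled blue points lower, and the black bar is the median. The members centre near 0 at 0.02, and the proliferation markers lie below 0 with a median of -0.28.

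Transcript usage, which asks whether transcripts of a gene changed unequally, gave a call for 4 of the 36 members with 2 or more transcripts tested, *Clasp1*, *Map2*, *Dclk2* and *Stmn4* (limma diffSplice). Over all genes 7.36% were called. The usage test pools the residual variance of all tested transcripts of a gene, so its p-values do not measure the spread between pools. The number of members called was 2 without WT replicate 2, with 4.32% of all genes called, and 8 without Deletion replicate 2, with 8.69%. *Map2* was called in 6 of the 6 fits that left out 1 library, *Clasp1* in 5, *Dclk2* in 3 and *Stmn4* in 1. Of the members not called with all libraries, *Camsap3* (adjusted p = 0.298) passed in 5 of these 6 fits and *Mapre2* (0.164) in 4, and neither passed without WT replicate 2 (0.791 and 0.321). Of the 4 genes called with all libraries, only *Stmn4* was also called for its total level. The transcripts that led the calls, *Clasp1-205*, *Map2-202*, *Dclk2-209* and *Stmn4-202*, hold 0 bases and 0 junctions that no other transcript of the gene has, so their levels rest on how the authors' quantification divided reads.

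*Stmn4-202* was 1.13, 1.4 and 1.72% of *Stmn4* TPM in Deletion and 3.63, 3.27 and 4.87% in WT, apart and lower in Deletion (gene adjusted p = 0.0285). The main transcript, *Stmn4-201*, was 85.5 to 87.8% in Deletion and 84.6 to 85.7% in WT, so the rise of the gene was carried by this form. The usage call of *Stmn4* was lost when any library other than WT replicate 3 was left out, with adjusted p of 0.0535 to 0.2001. *Dclk2-209* was 8.89, 7.33 and 6.53% of *Dclk2* TPM in Deletion and 11.1, 12.2 and 11.3% in WT, again with no overlap (gene adjusted p = 0.0287). Its most abundant transcript, *Dclk2-201*, was 29.0 to 32.6% in Deletion and 30.1 to 31.7% in WT. The call of *Dclk2* was lost without the factors (adjusted p = 0.214), and without Deletion replicate 3 (0.119), WT replicate 1 (0.687) or WT replicate 2 (0.190).

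*Clasp1-205* was listed at 0 in all 3 Deletion libraries and was 2.44, 1.92 and 1.81% of *Clasp1* TPM in WT, at 2.83, 2.29 and 1.99 TPM (gene adjusted p = 6.4e-09, and 0.0897 without WT replicate 1). The most abundant transcript tested, *Clasp1-225*, was 22.5 to 24.1% in Deletion and 20.8 to 21.9% in WT. *Map2-202* was 4.51, 1.11 and 0.195% of *Map2* TPM in Deletion and 0, 0.146 and 0.199% in WT, so Deletion replicate 3 lay within the WT range and Deletion replicate 1 set most of the mean (gene adjusted p = 2.6e-07). Without Deletion replicate 1 the adjusted p was 0.0300.

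*Map2* is known for a switch in development from short forms, which lack the projection domain, to the long dendritic form. Short coding forms, with 1300 to 1600 coding bases, made up 54.6 ± 1.16% of *Map2* TPM in Deletion and 56.0 ± 0.282% in WT, and they overlapped (SD, n = 3 each, exact permutation p = 0.3). The long form was 17.3, 18.5 and 17.7% in Deletion and 16.5, 17.1 and 16.8% in WT, apart by a narrow margin (exact p = 0.1, the smallest possible). The short forms were thus 3.06 times the long form in Deletion and 3.34 times in WT.

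**Figure D5:**
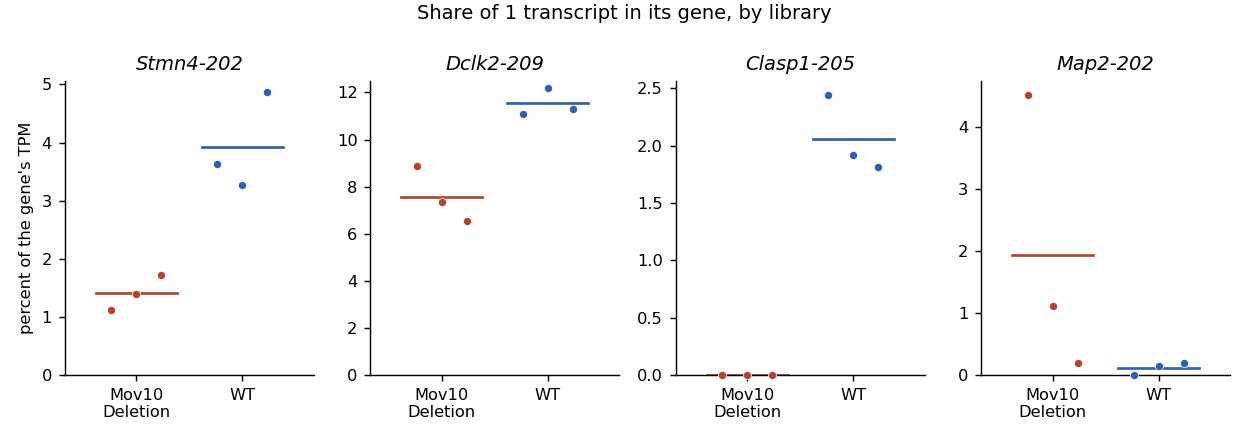
Share of 1 transcript in the TPM of its gene, in percent, in each library (points; bars are group means) for the transcripts that led the 4 usage calls. The shares of *Stmn4-202* and *Dclk2-209* are apart between groups, *Clasp1-205* is at 0 in all Deletion libraries, and *Map2-202* is high in Deletion replicate 1.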

How the data were processed

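Total RNA from hippocampi was sequenced by the study as stranded poly(A) libraries. The authors trimmed adapters and ran Salmon (version 1.4.0, from the submitters' processing notes) against a mouse transcriptome with GRCm39 as decoy, and deposited an estimated count, a TPM value and an effective length for each of 139225 transcripts. The sources used here do not give the annotation release. By GENCODE M39, 137570 transcripts were matched and summed per gene, and unmatched ones held 0.589 to 0.600% of counts.

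Genes reaching 0.25 CPM in 3 or more libraries were tested with limma-trend (limma 3.58.1, edgeR 4.0.16, R 4.3.3) on TMM log2 CPM (prior count 2), with genotype and 2 RUVs factors and Benjamini-Hochberg adjustment at 0.05 over all genes. RUVs was written out, since the study names RUVSeq but no function. Only 2 residual degrees of freedom remained. Fold changes are fitted log2 values. Transcript usage was tested with limma diffSplice, which pools the residual variance over all tested transcripts of a gene (18 for *Clasp1*, 17 for *Map2*). The transcripts come from the same pools and are not further replicates, so usage p-values do not measure the spread between pools. Shares and ratios used exact two-sided permutation tests. Sequences came from the GENCODE annotation. Values in every library were given for the tubulins, the called members, those the study names and the 4 most abundant others. Members and lists were chosen with earlier results of these data known. Pups per library were pooled, so p-values rest on pools and not on single pups. In the limma fits the 2 factors, drawn from the spread between pools within groups, were fitted together with genotype, so they could also move a fold change. The p-values of the gene fits therefore measure the spread left after the factors, moderated across genes, and not the full spread between pools.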

Additional observations from a re-analysis of the deposited data

How the results depend on the processing

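No called member changed sign: of 220 values for the 11 called members under alternatives, 201 kept their side of the threshold and 19 did not pass. Of 659 values for the 33 members not called, 588 stayed below the threshold with the same sign, 38 passed and 33 changed sign. *Tuba1c*, *Stmn4*, *Ckap5* and *Nde1* were called in 20 of 20. Without a filter on low counts 925 of 29469 genes were called in place of 4137 of 16745, with 1 member higher and 3 lower. Of all genes, 1.51% were higher and 1.63% lower in that fit. With the sex score as covariate 1364 genes were called, 4.58% higher and 3.57% lower, with 3 members higher and 3 lower. With RUVs factors from log(CPM + 1), chosen after seeing the data, 2202 genes were called. The cause was not tested. Upper-quartile normalization moved the split of calls from 2104 higher and 2033 lower to 2320 and 1491. Leaving out 1 library gave 2803 to 5797 genes, 2 to 11 members higher, 5 to 16 lower and 2 to 8 with a usage call. Transcripts with at least 1 CPM gave 7 usage calls among 33 members tested, with 8.29% of all genes called. The alpha to beta difference was 0.102 by TPM and 0.0847 by estimated counts.

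Deviations of same-numbered libraries of the 2 groups correlated at 0.0114, -0.0711 and 0.0432, against -0.0950 to 0.103 for differently numbered ones. Whether same-numbered libraries shared a litter or batch was not tested. With the replicate number as a block in place of the factors, 3425 genes, 4 members higher, 6 lower and 4 usage calls were found. The shares over all genes were 11.1% higher, 9.36% lower and 6.81% with a usage call. *Map1s* was lost (adjusted p = 0.0526). For usage, *Dclk2* (0.319) and *Stmn4* (0.0524) were lost while *Ndel1* (0.0190) and *Spast* (0.0270) were gained, and the latter pair also passed without factors (0.00606 and 0.0482).

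Signs changed for 12 members that were not called, whose log2 values in the main fit were small. Some of them passed in an alternative. Without Deletion replicate 2, *Tuba4a* (-0.224, limma adjusted p = 0.0199) and *Tubb4b* (0.0455) were called lower. *Stmn2* was called higher without Deletion replicate 3 (0.0218), and *Tubb4a* passed in 1 of 20 alternatives. *Katnal1*, at -0.02, was 0.0177 without factors and under the block, 0.0199 with 1 factor, 0.0217 with the sex score, 0.0151 by edgeR, 0.0135 by DESeq2, 0.00294 under upper-quartile normalization, 0.0142 with no filter and 0.000597 at 1 CPM. *Dclk2*, at 0.01, was -0.000512 without factors and under the block, -0.00535 with no filter and -0.0394 with length-scaled counts. The sex score gave 0.0695 for *Tuba4a*, 0.00734 for *Tubb4a*, -0.0575 for *Katna1* and 0.0148 for *Clip2*. Length-scaled counts gave -0.0712 for *Map1a* and -0.0585 for *Mapre2*. Leaving out 1 library gave -0.224 to 0.0855 for *Tuba4a*, -0.0389 to 0.0955 for *Tubb2a*, -0.0286 to 0.0685 for *Tubb3* and -0.0789 to 0.012 for *Tubb4b*. It gave -0.0082 to 0.112 for *Map1a*, -0.038 to 0.0363 for *Mapre2*, -0.00758 to 0.119 for *Stmn2*, -0.0369 to 0.0648 for *Dclk2*, -0.00742 to 0.105 for *Katna1* and -0.0409 to 0.0599 for *Katnal1*.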
